A study of Sus scrofa with 15 samples.

Results

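Excitation-contraction calcium release genes encode the proteins that turn the electrical signal of the skeletal muscle membrane into a release of calcium from the sarcoplasmic reticulum. They were measured here in Longissimus muscle, the long muscle of the back, of pigs from a low_RFI line (strain label RFIneg, 7 pigs) and a high_RFI line (strain label RFIpl, 8 pigs). The group was fixed by name as 6 genes: RYR1, CACNA1S, CACNG1, CASQ1, CASQ2 and TRDN. A non-control probe belonged to a gene when the array's annotation named that gene, and it was used when the scanner software called its spot well above background in 7 or more of the 15 samples. CACNA1S had no probe named for it among the 43603 non-control probes and is not described further. The other 5 genes had 10 probes in all, and all 10 passed the filter. They stand among 31984 probes and 4587 named genes that passed it in the whole series.

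Residual feed intake (RFI) compares how much an animal ate with the intake expected from its growth and upkeep, and a low_RFI animal ate less than expected. The 15 pigs weighed 20 kg and both lines were fed ad libitum. No treatment separated the groups, and the labels give no sex and no age. From each sample 150 ng of total RNA was labelled with the dye Cy3 and hybridised to a one-colour Agilent pig array, with 1 array per sample.

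In resting skeletal muscle the dihydropyridine receptor sits in the T-tubule membrane and senses its voltage; CACNA1S is its pore-forming subunit and CACNG1 an accessory subunit. On depolarisation it opens RYR1, the ryanodine receptor of the sarcoplasmic reticulum, by direct contact, and calcium leaves the store to start contraction. Triadin, encoded by TRDN, anchors the store's calcium-binding calsequestrins near the channel; CASQ1 is the fast-twitch skeletal calsequestrin, and CASQ2 the cardiac one, which slow-twitch fibres also make. RYR1 has a place in pig breeding, since a variant of it underlies porcine stress syndrome and pale, soft meat.

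The probes are single strands of 60 bases, and their sequences are shown because each value below is the brightness of 1 such spot. The 4 RYR1 probes all derive from the RYR1 transcript record, at bases 11961, 14425, 14883 and 15108 by the array's own start column, in that order:
RYR1 probe A_72_P458783: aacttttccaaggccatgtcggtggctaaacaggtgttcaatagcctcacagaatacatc
RYR1 probe A_72_P536998: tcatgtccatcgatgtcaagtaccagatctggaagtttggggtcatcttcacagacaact
RYR1 probe A_72_P648503: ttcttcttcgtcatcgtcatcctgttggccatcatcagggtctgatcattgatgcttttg
RYR1 probe A_72_P088506: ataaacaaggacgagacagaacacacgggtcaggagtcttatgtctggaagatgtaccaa
The triadin probes and the brighter calsequestrin probes, on which the line comparisons of those genes rest, were these:
TRDN probe A_72_P057836: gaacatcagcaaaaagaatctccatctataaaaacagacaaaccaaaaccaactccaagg
TRDN probe A_72_P414308: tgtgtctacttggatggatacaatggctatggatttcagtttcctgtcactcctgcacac
CASQ1 probe A_72_P414408: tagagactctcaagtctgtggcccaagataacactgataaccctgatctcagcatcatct
CASQ2 probe A_72_P306059: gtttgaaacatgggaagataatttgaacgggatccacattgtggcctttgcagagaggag

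Related genes could in principle bind the same probe. Member probes were compared without gaps, in 117 pairs, with probes of the ryanodine receptors, calsequestrins, triadin and its relatives, CACNG1 and CACNG6. The closest match lay between a RYR1 probe and a probe of RYR3, another ryanodine receptor gene. They overlapped over 41 bases, of which 32 were identical (78.0%). The overlap is printed with the 9 differing bases in capitals:
RYR1 probe A_72_P088506: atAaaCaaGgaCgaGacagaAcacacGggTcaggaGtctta
RYR3 probe A_72_P306099: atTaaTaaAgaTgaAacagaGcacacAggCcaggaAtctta
Whether RYR3 RNA contributed to this RYR1 spot was not tested. Probes were compared only with probes and not with whole transcripts. A match of a member probe to another part of a related RNA could therefore not be seen.

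The samples carried the markers of skeletal muscle. All 9 listed skeletal muscle markers were detected (called well above background) in all 15 samples. Of 6 listed cardiac muscle markers, 3 had no probe named for them. The natriuretic peptide genes NPPA and NPPB were detected in 0 samples, and TNNI3, the cardiac troponin I gene, was detected in all 15 samples, with a mean log2 signal of 1.83 in the low_RFI and 1.49 in the high_RFI pigs, relative to the 75th percentile of the array. Between 61.7% and 79.5% of the probes were detected in a sample, and 0 spots were saturated. The arrays sat on 4 slides that each held both lines. The numbers in the array names, taken as pig numbers, fell into a run from 1 to 8 (4 low_RFI and 4 high_RFI pigs) and a run from 55 to 62 (3 low_RFI and 4 high_RFI pigs); the labels do not say what the runs stand for. The labels number the samples as replicates without naming animals, and each sample is taken here as a separate pig. A p-value of the line test therefore sets a difference against the spread between these samples. In bulk muscle, fewer cells of a type and less RNA per cell cannot be told apart.

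None of the calcium release genes passed the test of a difference between the lines. In all that follows a level is the log2 of a probe's processed signal relative to the 75th percentile of its array, so a level of 7 lies 7 doublings above that percentile. A difference is low_RFI minus high_RFI on that log2 scale. With limma and Benjamini-Hochberg adjustment over all genes, 0 of the 5 measured genes passed an adjusted p of 0.05, and 0 of 5 had an unadjusted p under 0.05. Over all 4587 genes 0.0218% passed the adjusted threshold, which is 1 gene, and 7.09% had an unadjusted p under 0.05. Of the 10 member probes, 0 passed after adjustment over all probes, against 0% of all probes, and 1 had an unadjusted p under 0.05, against a background of 6.65%. The median difference of the 5 genes was 0.054, beside 0.014 over all genes tested. The high_RFI mean was the higher one for 1 of the 5 genes, beside 45.4% of all genes. It was the higher one for 1 of the 10 probes, beside 46.6% of all probes. Several of the 10 probes belong to the same gene and were read in the same samples, so they are not independent.

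**Figure D1:**
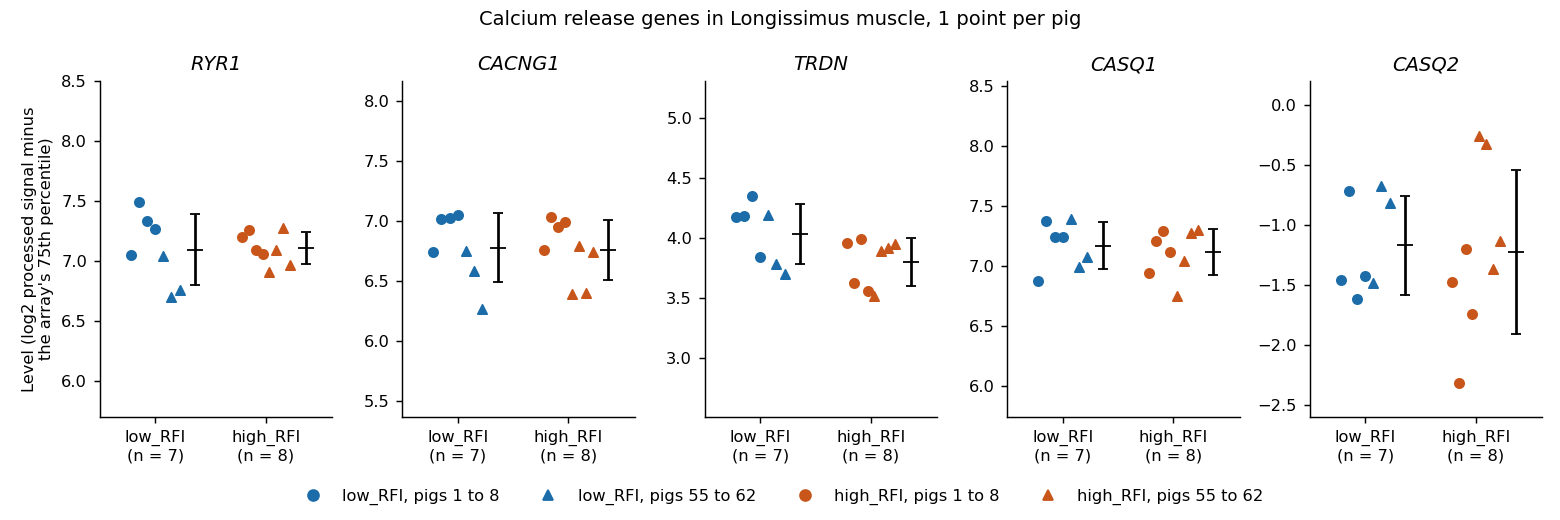
Level of each measured gene in each pig (log2, relative to the 75th percentile of its array), by line; circles are pigs 1 to 8 and triangles pigs 55 to 62, and the bar beside each group is its mean ± SD. Every panel spans the same range of log2 units around its own mean. The lines overlap in all 5 panels, and the CASQ2 points spread most, from -2.32 to -0.26.

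Of the voltage sensor, CACNG1 alone was measured. Its level ran from 6.26 to 7.05 with a median of 6.74 in the low_RFI pigs, and from 6.39 to 7.03 with a median of 6.77 in the high_RFI pigs. The ranges lay almost on top of each other, and the low_RFI pig was the higher one in 30 of the 56 possible pairs of a low_RFI and a high_RFI pig. The means were 6.77 ± 0.29 (SD, n = 7) and 6.75 ± 0.25 (SD, n = 8). The limma difference was 0.020 ± 0.14 (SE), with a 95% interval from -0.27 to 0.31 and an adjusted p of 0.9997. Its sign turned under quantile normalization (-0.029), with the run of pig numbers as a block (-0.0080) and without any 1 of low_RFI replicates 2, 3 and 4 or high_RFI replicates 5 and 7.

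CACNG1 levels did shift, but with the number in the array name, and the runs overlapped. Pigs 1 to 8 had levels from 6.74 to 7.05 with a median of 7.00, and pigs 55 to 62 from 6.26 to 6.79 with a median of 6.58. A later pig was the higher one in 3 of 56 pairs. The run was taken up as a comparison because CACNG1 shifted with it, so the CACNG1 values are a description and no p is given for them. In a limma fit of line and run together, which was added after the data had been seen, the CACNG1 difference (pigs 55 to 62 minus pigs 1 to 8) was -0.39 ± 0.096 (SE), or 1.31-fold. It lay between -0.42 and -0.31 in 24 alternatives. The alternatives reuse the arrays on which the comparison was chosen and add no support for it. For other genes compared by run below, the p-values belong to this same split and are not those of a planned comparison. The fit of line and run passed 163 of 4587 genes (3.55%), of which 61 were lower and 102 higher in pigs 55 to 62.

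RYR1, the release channel, did not differ between the lines beyond the spread of its pigs. On its brightest probe, A_72_P088506, the low_RFI pigs ran from 6.70 to 7.50 with a median of 7.05, and the high_RFI pigs from 6.91 to 7.28 with a median of 7.09. The low_RFI pigs therefore held both the lowest level (replicate 6) and the highest (replicate 2), and all high_RFI pigs lay between them. The SD was 0.30 in the low_RFI and 0.13 in the high_RFI pigs; the difference in spread was not tested. The means were 7.09 and 7.11. The difference was -0.015 ± 0.12 (SE), with a 95% interval from -0.26 to 0.23 and an adjusted p of 0.9997, and the low_RFI pig was higher in 27 of 56 pairs. 

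The other RYR1 probes gave small differences too, of 0.051 for A_72_P648503, 0.0075 for A_72_P536998 and 0.10 for A_72_P458783, with adjusted p-values of 0.990, 0.998 and 0.950 by limma over all probes. Probe A_72_P648503 ran from 5.83 to 6.53 over all pigs, A_72_P536998 from 5.10 to 5.74, and A_72_P458783 from 1.53 to 2.19. Across pigs the 3 brighter probes followed each other, with Pearson's r of 0.848 to 0.892 over 15 pigs. The dimmest, A_72_P458783, lies furthest from the others on the transcript; its r was 0.376 with A_72_P088506, 0.522 with A_72_P648503 and 0.632 with A_72_P536998. By r, only the last of these 3 passed in a family of 8 probe pairs, with a permutation p of 0.011 and an adjusted p of 0.017 (15 pigs). The mean over all 4 RYR1 probes differed between the lines by 0.037, against -0.015 for the brightest probe alone, so the sign depends on the probe. It turned in 7 of 30 alternatives, which ranged from -0.082 to 0.053.

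Between the runs of pig numbers RYR1 went the way of CACNG1, without passing. Pigs 1 to 8 had levels from 7.05 to 7.50 and pigs 55 to 62 from 6.70 to 7.28. The difference of -0.26 ± 0.099 (SE) had a limma adjusted p of 0.14. The run was chosen on CACNG1, with which RYR1 had an r of 0.641 across pigs, so the shared direction is not a separate finding. Within pigs 1 to 8 the low_RFI mean was higher by 0.13 (4 against 4 pigs), and within pigs 55 to 62 the line difference was -0.23 (3 against 4). That the line difference depends on the run was not tested.

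**Figure D2:**
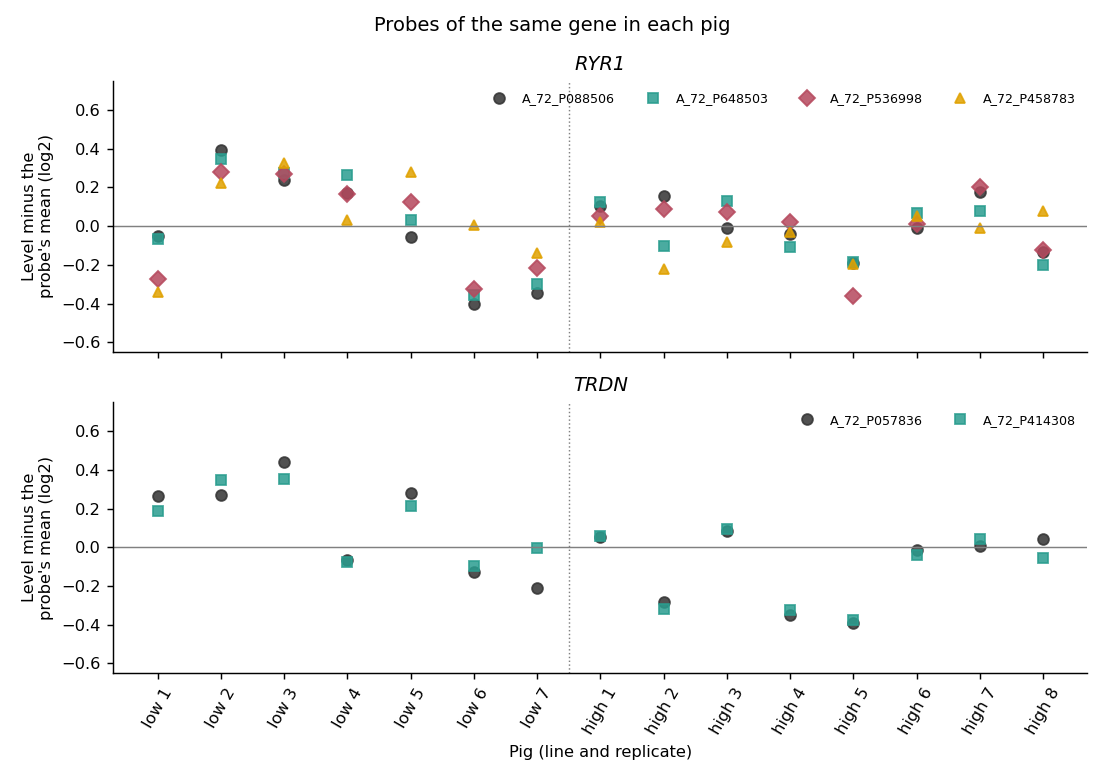
Level of each RYR1 probe (upper panel) and each TRDN probe (lower panel) in each pig, minus that probe's mean over the 15 pigs, in log2 units; low_RFI replicates stand left of the dotted line and high_RFI replicates right of it. The triadin probes nearly coincide in most pigs (r = 0.951), whereas RYR1 probe A_72_P458783 departs from the other 3 in several pigs.

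TRDN, the triadin gene, showed the largest line difference among the 5 genes, and it did not pass. Its brighter probe, A_72_P057836, is described by the array through similarity to human triadin. On probe A_72_P057836 the low_RFI pigs ran from 3.69 to 4.34 with a median of 4.17, and the high_RFI pigs from 3.51 to 3.99 with a median of 3.90. Low_RFI replicates 1, 2, 3 and 5 lay above every high_RFI pig, while replicates 4, 6 and 7 lay among them. The means were 4.03 ± 0.25 (SD, n = 7) and 3.80 ± 0.20 (SD, n = 8). The difference was 0.23 ± 0.12 (SE), or 1.17-fold, with a 95% interval from -0.019 to 0.48, an unadjusted p of 0.068 and a limma adjusted p of 0.75 over all genes. The low_RFI pig was higher in 41 of 56 pairs, and 412 genes had a smaller p.

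The second triadin probe, A_72_P414308, measured the same pattern from another stretch of sequence. Its low_RFI levels ran from 1.74 to 2.19 with a median of 2.03, and its high_RFI levels from 1.47 to 1.93 with a median of 1.79. The difference was 0.25 ± 0.10 (SE), with a 95% interval from 0.024 to 0.47 that is not corrected for the number of probes. This was the single member probe with an unadjusted p under 0.05 (p of 0.032), and its limma adjusted p over all probes was 0.73. The low_RFI pig was higher in 43 of 56 pairs. The triadin probes had an r of 0.951 over the 15 pigs (Spearman's rho 0.946), so they are repeat measurements of the same RNA samples and not a second set of animals.

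The triadin difference kept its sign under all 30 alternative settings of the whole fit, between 0.18 and 0.28, with adjusted p-values from 0.64 to 0.97. Its size was uneven across subsets of pigs. Within pigs 1 to 8 it was 0.35, and within pigs 55 to 62 it was 0.072. By slide it was 0.055 on slide 1, 0.60 on slide 2, 0.53 on slide 3 and -0.20 on slide 4, each from 1 or 2 low_RFI and 2 high_RFI pigs. Between the runs of pig numbers TRDN differed by -0.096 ± 0.12 (SE), with a limma adjusted p of 0.66.

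**Figure D3:**
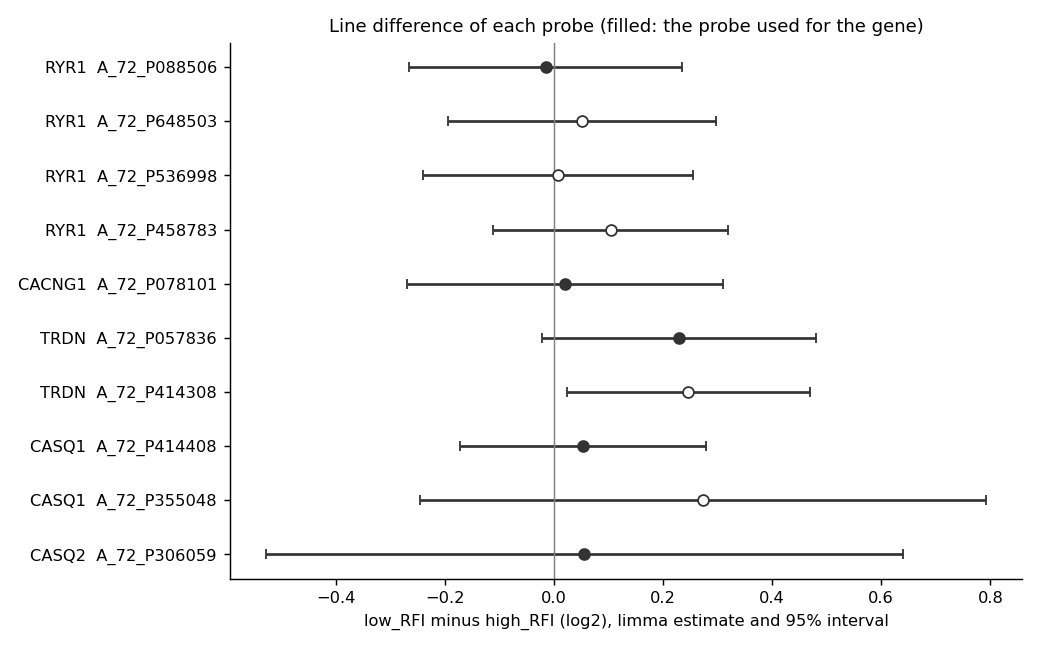
Difference between the lines (low_RFI minus high_RFI, log2) for each of the 10 member probes, as limma's estimate with its unadjusted 95% interval; filled points are the probes used for the gene. The interval of TRDN probe A_72_P414308, from 0.024 to 0.47, is the only one that leaves out 0, and no probe passed after adjustment.

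Of the calsequestrins, which hold calcium in the store, neither passed the line test. CASQ1 on probe A_72_P414408 ran from 6.87 to 7.39 with a median of 7.23 in the low_RFI pigs and from 6.75 to 7.30 with a median of 7.16 in the high_RFI pigs. The SD was 0.195 in each line, and 26.2% of all genes tested varied less over the 15 pigs. The difference was 0.054 ± 0.10 (SE), with a 95% interval from -0.17 to 0.28 and a limma adjusted p of 0.99. Low_RFI pigs were higher in 32 of 56 pairs. Quantile normalization brought the difference to -0.0027. The second CASQ1 probe, A_72_P355048, was detected in 9 of 15 samples and had levels from -5.70 to -3.87. Its difference was 0.27 with an SE of 0.24. Across the 15 pigs its r with the brighter probe was 0.443 (permutation adjusted p = 0.11). Its rho was 0.55 (permutation adjusted p = 0.0497). The array describes it by similarity to the bovine skeletal calsequestrin, so that it measures CASQ1 is less certain.

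CASQ2, the cardiac and slow-fibre calsequestrin, was the most variable of the 5 genes between pigs. Its level ran from -1.62 to -0.68 with a median of -1.42 in the low_RFI pigs, and from -2.32 to -0.26 with a median of -1.28 in the high_RFI pigs. Both the lowest pig (replicate 2) and the highest (replicate 5) were high_RFI animals, 4.16-fold apart. Over all 15 pigs the SD was 0.56, and 88.2% of genes varied less. The corresponding shares of genes that varied less were 26.2% for CASQ1, 36.0% for RYR1, 46.0% for TRDN and 49.9% for CACNG1. The spot was nevertheless detected in all 15 samples.

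The CASQ2 line means were -1.17 ± 0.41 (SD, n = 7) and -1.23 ± 0.69 (SD, n = 8). Their difference of 0.056 ± 0.28 (SE) had a 95% interval from -0.53 to 0.64, which is wider than for the other 4 genes, and a limma adjusted p of 0.999. The low_RFI pig was higher in 28 of 56 pairs. The sign of this difference turned in 7 of the 30 alternatives, and without high_RFI replicate 2 it became -0.10. By run of pig numbers CASQ2 went opposite to CACNG1 and RYR1: pigs 1 to 8 had a median of -1.47 and pigs 55 to 62 a median of -0.82. That difference of 0.63 ± 0.23 (SE), or 1.55-fold, had a limma adjusted p of 0.13. A later pig was higher in 47 of 56 pairs. For CASQ1 the run difference was -0.039 with an adjusted p of 0.86.

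Members were then compared with each other across the 15 pigs, in a family of 10 pairs. RYR1 and CACNG1, the channel and the accessory subunit of its voltage sensor, had the highest coefficient, with Pearson's r of 0.641 (permutation p = 0.010, adjusted p = 0.10) and Spearman's rho of 0.704 (permutation p = 0.0045, adjusted p = 0.045). Without the 2 pigs farthest from the RYR1 median r was 0.619. Within pigs 1 to 8 it was 0.506 and within pigs 55 to 62 it was 0.235. The permutation did not keep these runs apart, so its p-value cannot separate a shift between them from a relation within them. By Pearson's r this pair passed without high_RFI replicate 7 (r = 0.816, permutation adjusted p = 0.0034) and in no other of 21 alternatives. The other 9 pairs had adjusted p-values of at least 0.178 by r and 0.219 by rho. All 6 pairs among RYR1, CACNG1, CASQ1 and TRDN had a positive r, from 0.325 to 0.641, and all 4 pairs with CASQ2 had a negative one, from -0.507 to -0.119. Within pigs 1 to 8, however, 3 of the 4 CASQ2 pairs were positive, with r of 0.339 with RYR1, 0.285 with CASQ1 and 0.577 with TRDN. Within pigs 55 to 62 all 4 were negative, with r of -0.404 with RYR1, -0.916 with CASQ1, -0.761 with TRDN and -0.122 with CACNG1.

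The mean level of a list of fast fibre genes was set beside each member, because fibre types differ in their calcium release proteins. The list held 11 genes, of which 9 were tested, among them MYH4, a fast myosin heavy chain, and its mean level ran from 8.59 to 9.07 in the low_RFI and from 8.55 to 8.97 in the high_RFI pigs. A list of 11 slow fibre genes, 10 of them tested, included the slow myosin heavy chain MYH7 and ran from 5.84 to 7.65 and from 5.76 to 7.40. The 2 lists with 5 members made a second family of 10 relations. Genes were averaged without scaling, so those that vary most weigh most in the movement of a list. In the fast list the SD over all 15 pigs ran from 0.096 for MYLPF to 0.52 for PVALB, and was 0.17 for MYH4.

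RYR1 rose and fell with the fast fibre list from pig to pig. Pearson's r was 0.761 (permutation p = 0.00088, adjusted p = 0.0088) and Spearman's rho 0.696 (adjusted p = 0.025) over the 15 pigs. Without the 2 pigs farthest from the median of the list r was 0.861, and with the line means removed it was 0.770. Within pigs 1 to 8 r was 0.778 and within pigs 55 to 62 it was 0.413. The permutation did not keep the runs apart, so its p-value cannot separate a shift between them from a relation within them. The call was lost under quantile normalization, where r was 0.528 with a permutation adjusted p of 0.11. It held in the other 20 alternatives, with r from 0.697 to 0.818.

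CACNG1 gave an r of 0.703 (permutation p = 0.0041, adjusted p = 0.021) and a rho of 0.707 (adjusted p = 0.025) with the fast fibre list. Within pigs 1 to 8 r was 0.633 and within pigs 55 to 62 it was 0.199, and without the 2 farthest pigs r was 0.831. Both sides of this relation were lower in pigs 55 to 62. The CACNG1 median was 7.00 in pigs 1 to 8 and 6.58 in pigs 55 to 62, and that of the list 8.94 and 8.64. Since the permutation did not keep the runs apart, its p-value cannot separate this shared shift from a relation within the runs. The adjusted permutation p rose to 0.054 with normexp correction (r = 0.615), to 0.11 with quantile normalization (r = 0.584), and to 0.051 without low_RFI replicate 4 (r = 0.666) or high_RFI replicate 5 (r = 0.662). CASQ1 had an r of 0.603 and CASQ2 of -0.564, with permutation adjusted p-values of 0.062 and 0.073. The CASQ1 relation passed in 5 of 21 alternatives, namely normexp correction (r = 0.654), median scaling (r = 0.709), the deposited values (r = 0.634) and the omission of high_RFI replicate 1 (r = 0.733) or 8 (r = 0.656), with a lowest permutation adjusted p of 0.011. The CASQ2 relation passed in 3 of 21, namely the percentile over probes detected on all arrays (r = -0.627) and the omission of low_RFI replicate 1 (r = -0.648) or 2 (r = -0.760), with a lowest permutation adjusted p of 0.013. CASQ2 had an r of -0.939 within pigs 55 to 62 and 0.145 within pigs 1 to 8. TRDN had an r of 0.266 with an adjusted p of 0.42.

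With the slow fibre list no member passed. The coefficients were -0.364 for RYR1, -0.382 for CACNG1, -0.167 for CASQ1 and -0.431 for TRDN, with permutation adjusted p-values of 0.22 or more. For CASQ2, a protein known from slow fibres, r with the slow list was 0.040, with an adjusted p of 0.89. The share of probes detected in a sample was tested against each member as a family of 5, and the lowest permutation adjusted p by r was 0.25, for CACNG1 (r = -0.514). The part of fibre make-up, RNA quality, the shared scaling of the arrays or the runs of pig numbers in these relations was not tested. How many of all genes tested followed a fibre list as closely was not counted.

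**Figure D4:**
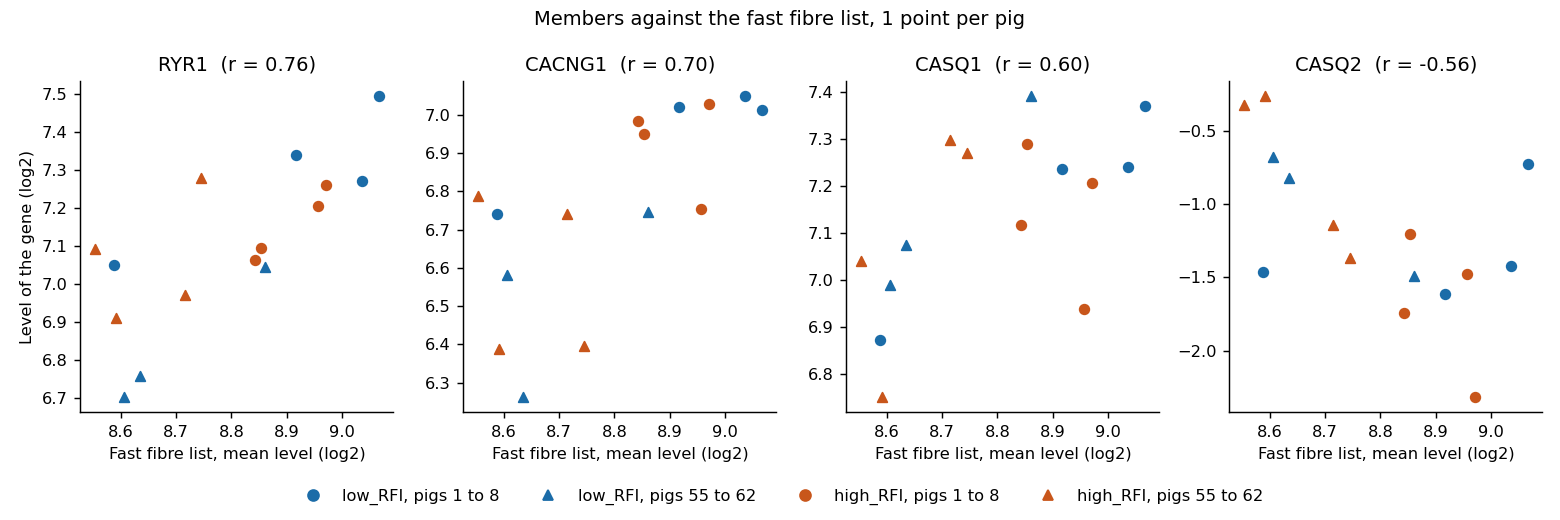
Level of RYR1, CACNG1, CASQ1 and CASQ2 (log2) against the mean level of 9 fast fibre genes (log2), 1 point per pig; colour gives the line and shape the run of pig numbers. RYR1 (r = 0.76) and CACNG1 (r = 0.70) climb with the list, CASQ2 has a negative coefficient (r = -0.56), and the triangles of pigs 55 to 62 sit toward the low end of the list.

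Among 4524 other genes with a value in all 15 pigs, those whose pattern lay closest to each member were listed by Pearson's r as a description. RYR1 was closest to RPLP1 (0.858), TIAL1, ZNF391, ACTA1 (0.815) and RPL32, of which ACTA1 encodes skeletal muscle actin and RPLP1 and RPL32 encode ribosomal proteins. CACNG1 was closest to ITGA2B (0.880), ALG5, RIMKLB, POU2F1 and ATIC. CASQ1 was closest to PFKFB1 (0.897), an enzyme that sets the level of a glycolysis activator, followed by DNAJC19, CAPZA2 and BMPR1A. Genes close to CASQ2 were KHNYN (0.848), TNFSF13B, KMO and the chemokine gene CXCL16. TRDN was closest to PNISR (0.869), RPS4X, VPS13A, RPL14 (0.788) and MSTN (0.813), the gene of myostatin, a brake on muscle growth. No member appeared among the 5 closest genes of another member.

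The wider machinery of excitation-contraction coupling was followed through a list of 59 other genes in 9 roles, of which 32 were tested. Of the rest, 23 had no probe named for them and 4 had probes that missed the filter. Among the 32, 0 passed the adjusted threshold and 0 had an unadjusted p under 0.05 in the limma fit, against 0.0218% and 7.09% of all genes. Their median difference was -0.0065, with 15 genes higher in the low_RFI mean and 17 in the high_RFI mean. Of the partners of the voltage sensor, CACNA2D1, which encodes its alpha-2-delta subunit, differed by 0.19 ± 0.12 (SE), with a limma p of 0.12. CACNB1, its beta subunit, differed by -0.0035, and CACNG6 by -0.048.

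Regulators of the release channel and proteins of the store gave the same picture. FKBP1A, a small protein bound to RYR1, differed by 0.14 ± 0.097 (SE) and CAMK2G, a calcium-dependent kinase gene, by -0.061. CALR, the luminal calcium-binding protein calreticulin, had the smallest p of the list, 0.062 by limma, with a difference of 0.19 ± 0.093 (SE) and an adjusted p of 0.74. SRL differed by -0.062 and HRC, another luminal calcium-binding protein, by 0.045. Of the other release channels, ITPR1 differed by -0.096 and RYR3 by -0.040. The 3 RYR2 probes were detected in at most 4 samples.

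Of the pumps and exchangers, which refill the store and clear the cytosol, 5 of 6 tested genes had the higher mean in the high_RFI line, beside 45.4% of all genes, and 0 passed. That count depended on the processing and lay between 3 and 6 over 30 alternatives, being 3 of 6 with the mean of all probes of a gene and without low_RFI replicate 6 or high_RFI replicate 1. PLN, the phospholamban gene, differed by -0.39 ± 0.47 (SE), ATP2A2, the slow-fibre calcium pump, by -0.24 ± 0.27 (SE), and SLC8A1, a sodium-calcium exchanger, by -0.10 ± 0.11 (SE). The slow fibre list, which ATP2A2 belongs to, went the same way: all 10 tested genes had the higher mean in the high_RFI line, with differences from -0.98 (MYL6B) to -0.027 (TNNC1), and 0 passed. That count was 8 or more in each of the 30 alternatives, and 8 with normexp correction. The 10 genes were read in the same samples, so they are not independent, and ATP2A2 counts in both lists. The mean level of the slow fibre list was 6.62 ± 0.55 (SD, n = 7) in the low_RFI and 6.91 ± 0.56 (SD, n = 8) in the high_RFI pigs. The part of the slow fibre list in the values of the pumps was not tested. In membrane excitation KCNA5, a potassium channel gene, differed by -0.010. BIN1 and CAV3 of the T-tubule differed by 0.016 and 0.0089. STIM1, TRPC1 and ORAI1 of store-operated entry differed by 0.015, -0.018 and 0.013. Of the cytosolic sensors PPP3CA, PPP3R1 and TNNC2, the calcineurin and troponin C genes, the differences were 0.085, 0.062 and 0.058.

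**Figure D5:**
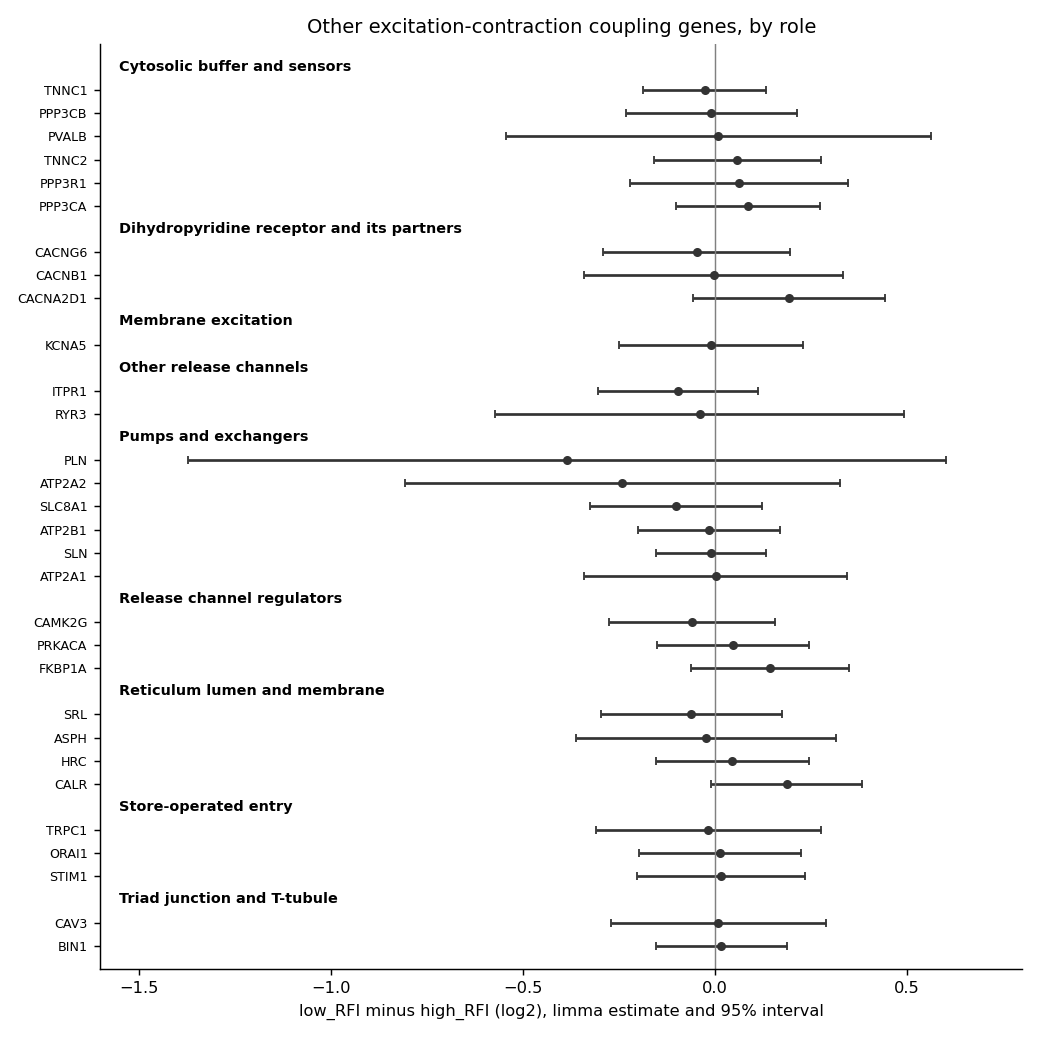
Difference between the lines (low_RFI minus high_RFI, log2) for 30 of the 32 tested genes of the wider pathway, grouped by role, as limma's estimate with its unadjusted 95% interval. All 30 intervals shown include 0, and those of PLN and ATP2A2 are the widest of the pumps.

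Between the runs of pig numbers, 1 of these 32 genes passed in the limma fit of line and run, against 3.55% of all genes. This was PVALB, the gene of the cytosolic calcium buffer parvalbumin, which was lower in pigs 55 to 62 by a log2 difference of -0.79 ± 0.17 (SE), or 1.73-fold, with an adjusted p of 0.025. It is named here after its value was seen. The call on PVALB held in 24 of 24 alternatives, with differences from -0.90 to -0.71. These alternatives reuse the arrays on which the run was chosen as a comparison, and they add no support for the call. CACNB1, the beta subunit that shares a complex with CACNG1, differed by -0.43 ± 0.12 (SE) with a limma adjusted p of 0.057. CAV3, the muscle caveolin gene, differed by -0.35 ± 0.10 (SE) with a limma adjusted p of 0.066, and ATP2A1, the fast-fibre calcium pump, by -0.39 ± 0.13 (SE) with an adjusted p of 0.10. PLN and ATP2A2 went the other way, by 0.80 ± 0.43 (SE) and 0.46 ± 0.25 (SE), each with a limma adjusted p of 0.29. Of the 32 genes 19 were lower in pigs 55 to 62 and 13 higher, and 58.3% of all genes were lower. The fast fibre list had a median level of 8.94 in pigs 1 to 8 and 8.64 in pigs 55 to 62, and the slow fibre list 6.50 and 7.02. PVALB and ATP2A1 belong to the fast fibre list as well.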

How the data were processed

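Longissimus muscle RNA of 15 pigs was read on 15 one-colour Agilent arrays. The deposited scanner files hold intensity values per spot, background-corrected by Agilent Feature Extraction 10.7.3.1 per the file headers. The authors' deposited log2 table of 29364 probes equals the log2 processed signal minus a constant per array, to within 4.9e-08, and served as an alternative. R 2.10.0 is named per the submitters' processing notes; other steps are not given in the sources used here.

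Processed signals were log2-transformed and scaled to the 75th percentile of the non-control probes of their array; spots flagged non-uniform were left out. A probe was tested when well above background on at least 7 of 15 arrays with at least 4 values per line. For a gene the tested probe of highest mean level was used. Lines were compared with limma 3.58.1 in R 4.3.3 (lmFit, eBayes, two-sided, adjusted p under 0.05), and relations across pigs by permutation with 100000 resamples in numpy 2.4.6. Both were tested on simulated data. The number of arrays limits the precision.

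Probes were named from the array's gene name, identifier or description and a RefSeq gene table of Sscrofa11.1; no name was found for 31154 of 43603 probes. Both TRDN probes and the dimmer CASQ1 probe were named from the full protein name or symbol in their description. The text names all members and their probes, up to 3 genes of smallest p per role, the 5 genes closest to each member, MYH4 and MYH7; a few genes that this rule names are not reported here, and further genes are background or said to be chosen after their values were seen. The members and lists were chosen with earlier results of these data known. Alternatives were other scalings, background correction, filters, blocks, probe rules and the omission of each pig; the run of pig numbers as a comparison, and alternatives for relations, were added after seeing the data. Replicate numbers were not treated as pairs, since deviations of same-numbered pigs correlated between -0.036 and 0.31.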

Additional observations from a re-analysis of the deposited data

How the results depend on the processing

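No member passed the line test in the whole fit or under any of 30 alternatives, and the signs of all but TRDN turned in some. CACNG1 turned to -0.029 with quantile normalization and -0.0080 with the run of pig numbers as a block, and lay between -0.033 and 0.10 without 1 pig. CASQ1 turned to -0.0027 with quantile normalization. CASQ2 turned to -0.051 with normexp correction and -0.017 with array weights, and lay between -0.10 and 0.19 without 1 pig. RYR1 turned to 0.053 with normexp correction, 0.028 with array weights and 0.037 with the mean of all probes, and lay between -0.082 and 0.051 without 1 pig. TRDN moved to 0.60, 0.53 and -0.20 within slides 2, 3 and 4. The cause was not tested. With the replicate number as a block, which the labels do not describe as a pairing, 0 genes passed in place of 1, and no call on a member changed. The count of genes that differed between the lines was also 0 with normexp correction, median scaling, the deposited values, no filter, slide as a fixed block, the run as a block and the mean of all probes, and 0 to 2 without 1 pig. Over probes it was 1 with no filter and 0 to 2 without 1 pig. The run of pig numbers passed 71 genes in place of 163 with normexp correction, and 76 to 231 without 1 pig; the CASQ1 run difference turned to 0.015 with normexp correction and lay between -0.088 and 0.019 without 1 pig. Across pigs, r of RYR1 with the fast list was 0.528 with quantile normalization, and r of CACNG1 with it 0.615 with normexp correction and 0.584 with quantile normalization. Without 1 pig, r of RYR1 and CACNG1 lay between 0.532 and 0.816, of the fast list with RYR1 between 0.697 and 0.818, and with CACNG1 between 0.662 and 0.773. Signal over background limits the dim CASQ1 probe (9 of 15 arrays).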
